A study of Homo sapiens with 12 samples.

Results

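Metallothioneins, zinc transporters and the metal-sensing transcription factor MTF1 were followed in a lung cancer cell line grown in culture and as tumours. The members were 10 listed genes, and every probe set carrying one of these symbols alone in the platform annotation was taken, which gave 18 of the 54675 probe sets on the array. They comprised 11 probe sets of 7 metallothionein genes (MT1E, MT1F, MT1G, MT1H, MT1M, MT1X and MT2A), 4 probe sets of the zinc transporters SLC30A1 and SLC39A10, and 3 of MTF1. No probe set that names several genes (0 of those in the annotation) held a member. The cells were NCI-H1299, a long-established line from a human non-small cell lung carcinoma, and each of 12 RNA samples, 3 in each of 4 groups, was put on its own Affymetrix HG-U133 Plus 2.0 array. Parental cells were cultured in serum-containing medium. Spheroid cells were cultured in stem-cell medium: monolayers were kept in it for 7 to 10 days, and floating cells were then moved to flasks that prevent attachment. Parental xenografts and spheroid xenografts were tumours grown from each kind of cell. The labels name no transgene and no drug, and all 4 groups descend from a single line. The labels leave unstated the host animal, the graft site, whether tumours of a group came from separate animals, and how much metal either medium contained. Titles call the 3 arrays of each group biological replicates, without saying what was repeated. Some of the spread behind the p-values may thus still be technical.

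Metallothioneins are small cysteine-rich proteins that bind zinc, copper and cadmium in the cytoplasm. When free zinc rises, MTF1 binds short metal response elements in the promoters of metallothionein genes and of SLC30A1 and activates them. SLC30A1 (ZnT1) exports zinc across the plasma membrane, and SLC39A10 (ZIP10) imports it. Glucocorticoids and oxidative stress are also known inducers of metallothioneins. Metallothionein RNA is widely used as a readout of how much zinc a cell holds, but because of these other inducers it does not report zinc alone.

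The promoters are shown because they carry the element through which MTF1 is known to act. Of the 10 genes, 6 had an entry in the RefSeq promoter table of GRCh38.p14. The 250 bases before each annotated start were searched on both strands for the 7-base core of the element, spelled TGCACNC or TGCGCNC. Matches did not overlap one another. In the 4 sequences with a match, written 5' to 3' on the gene's strand, capitals mark the matches; those on the other strand read as the reverse complement, GNGTGCA or GNGCGCA. The windows are chr16:56608334-56608583 (plus strand) for MT2A, chr16:56669564-56669813 (plus strand) for MT1H, chr16:56682220-56682469 (plus strand) for MT1X and chr1:211579162-211579411 (minus strand) for SLC30A1.
MT2A: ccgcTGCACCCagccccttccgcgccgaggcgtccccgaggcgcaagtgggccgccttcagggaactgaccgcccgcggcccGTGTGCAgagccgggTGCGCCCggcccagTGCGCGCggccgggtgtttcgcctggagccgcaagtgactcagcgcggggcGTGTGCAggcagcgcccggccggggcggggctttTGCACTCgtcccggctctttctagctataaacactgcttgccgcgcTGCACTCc
MT1H: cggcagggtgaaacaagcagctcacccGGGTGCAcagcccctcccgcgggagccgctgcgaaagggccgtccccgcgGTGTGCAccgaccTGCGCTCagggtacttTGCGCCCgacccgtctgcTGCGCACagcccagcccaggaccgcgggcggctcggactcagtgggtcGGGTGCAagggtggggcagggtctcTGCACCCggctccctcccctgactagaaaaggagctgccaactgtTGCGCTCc
MT1X: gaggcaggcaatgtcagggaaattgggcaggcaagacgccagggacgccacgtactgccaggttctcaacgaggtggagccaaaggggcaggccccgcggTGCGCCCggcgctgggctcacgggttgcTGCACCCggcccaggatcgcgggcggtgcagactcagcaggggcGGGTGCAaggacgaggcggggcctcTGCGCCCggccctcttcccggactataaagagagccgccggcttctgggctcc
SLC30A1: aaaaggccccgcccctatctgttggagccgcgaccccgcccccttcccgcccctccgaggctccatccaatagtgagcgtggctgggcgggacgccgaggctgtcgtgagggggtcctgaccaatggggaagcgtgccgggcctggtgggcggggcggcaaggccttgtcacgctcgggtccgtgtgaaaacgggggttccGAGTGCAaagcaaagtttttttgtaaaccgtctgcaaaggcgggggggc
MT1H had 8 matches, 5 on the gene's strand and 3 on the other. MT2A had 7, of which 5 were on the gene's strand, and MT1X had 4, of which 3 were. SLC30A1 had 1 match, on the other strand, 49 to 43 bases before the start. Among 35116 promoter windows of this length, 24.8% held at least 1 match, 0.37% held as many as MT1X, 0.0313% as many as MT2A and 0.0171% as many as MT1H. The windows of SLC39A10 (both annotated starts) and of MTF1 held 0 matches. Bases after the start were not searched, so these windows do not show that either gene lacks the element. A match is a description of the letters and not a shown binding site.

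**Figure D1:**
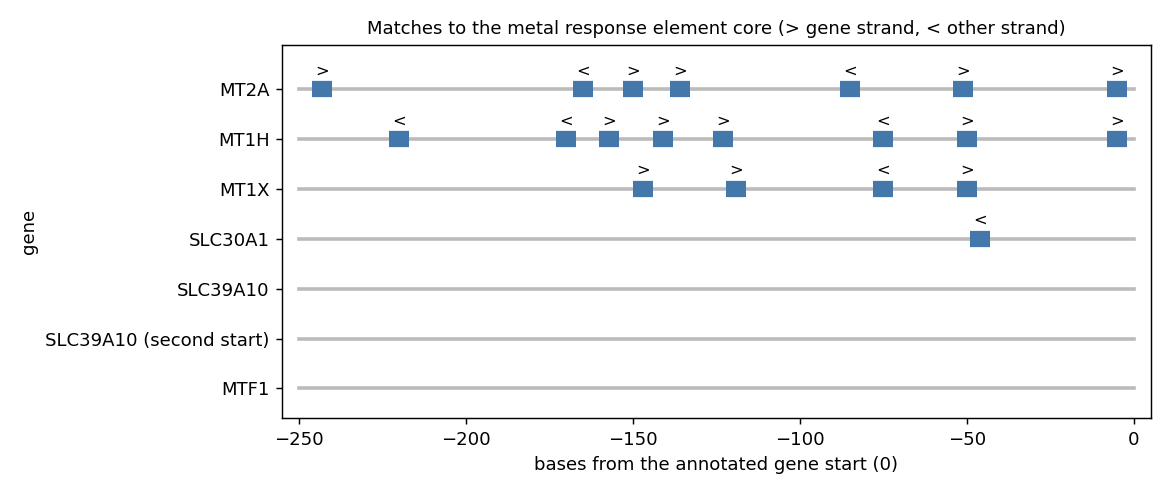
Positions of the metal response element core in the 250 bases before the annotated start of each gene (horizontal axis, bases from the start), with > for a match on the gene's strand and < for a match on the other. The metallothionein windows hold 4 to 8 matches, that of SLC30A1 holds 1, and those of SLC39A10 and MTF1 hold 0.

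In the gene table of the same assembly the metallothionein genes lie side by side on chromosome 16. MT2A comes before MT1E, MT1M, MT1F, MT1G, MT1H and MT1X in that order, with other metallothionein genes and pseudogenes between them. Their transcripts are much alike. Of the 11 metallothionein probe sets, 9 carry the suffix by which Affymetrix marks probe sets with probes that may match other genes (_x_at). The other 2, MT1G 210472_at and MT1M 217546_at, were dim: MT1G 210472_at lay between 4.64 and 5.21 on all 12 arrays, and MT1M 217546_at was below the array's lower quartile on 11 of 12. Which metallothionein gene changed therefore cannot be told apart on this platform, and the 9 probe sets are not 9 independent measurements. An _x_at probe set of the related gene MT1HL1, chosen for mention after its values were seen, is given beside them.

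The interquartile range of an array's log2 values was 2.82 at its narrowest, on parental culture replicate 1, and 3.44 at its widest, on parental culture replicate 2; medians were between 5.85 and 6.03. Probe sets varied most among parental cultures (median SD 0.276, against 0.153 to 0.184 in the other 3 groups). By correlation over probe sets, parental xenograft replicate 3 was closest to spheroid xenograft replicate 3 (r = 0.986). Parental culture replicate 2 was closest to parental xenograft replicate 3 (r = 0.975) and spheroid culture replicate 1 to parental xenograft replicate 2 (r = 0.983). Results that rest on parental culture are therefore also given without its replicates 1 and 2. This was done for the members described most fully and for the metallothioneins as a group. It left parental culture with replicate 3 alone, so those results are given as differences without a p-value. Of the 6 epithelial markers, the keratin KRT18 was between 10.28 and 13.01 on every array, while EPCAM and CDH1 were below the lower quartile on all 12. KRT18 (-1.71, limma adjusted p = 0.0275) and the keratin KRT8 (-1.77, adjusted p = 0.00471) were lower in parental xenografts than in parental culture, and KRT8 was lower in spheroid than in parental culture (-1.43, adjusted p = 0.0175). Of the 3 mesenchymal-type markers, VIM read 13.55 to 14.70 with 0 calls. In parental xenografts against parental culture fibronectin FN1 was higher (4.02, limma adjusted p = 0.0250) and the cadherin CDH2 lower (-0.71, adjusted p = 0.0494). Of 6 measured lung lineage markers, 0 were called by limma in any comparison, and 0 had an unadjusted p under 0.05.

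Across the 4 groups, the mean metallothionein _x_at signal was close in both cultures, spread widely among parental xenografts and was lowest in spheroid xenografts. Of the 11 metallothionein probe sets, 1 was called between xenografts and culture of spheroid cells, and it was called in 9 of 22 alternative fits. In the other comparisons 0 were called. The zinc importer SLC39A10 was higher in xenografts than in culture of parental cells; its difference in spheroid cells was not called. The leading probe set of the exporter SLC30A1 varied among samples of every group. Levels below are deposited log2 values, given as mean ± SD (n = 3), and differences are log2 differences with their standard error (SE) from limma. To be called, a difference needed an adjusted p (Benjamini-Hochberg, over the 54613 probe sets tested) under 0.05. Exact permutation of 3 against 3 arrays cannot give a p below 0.1, so the tests rest on limma.

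**Figure D2:**
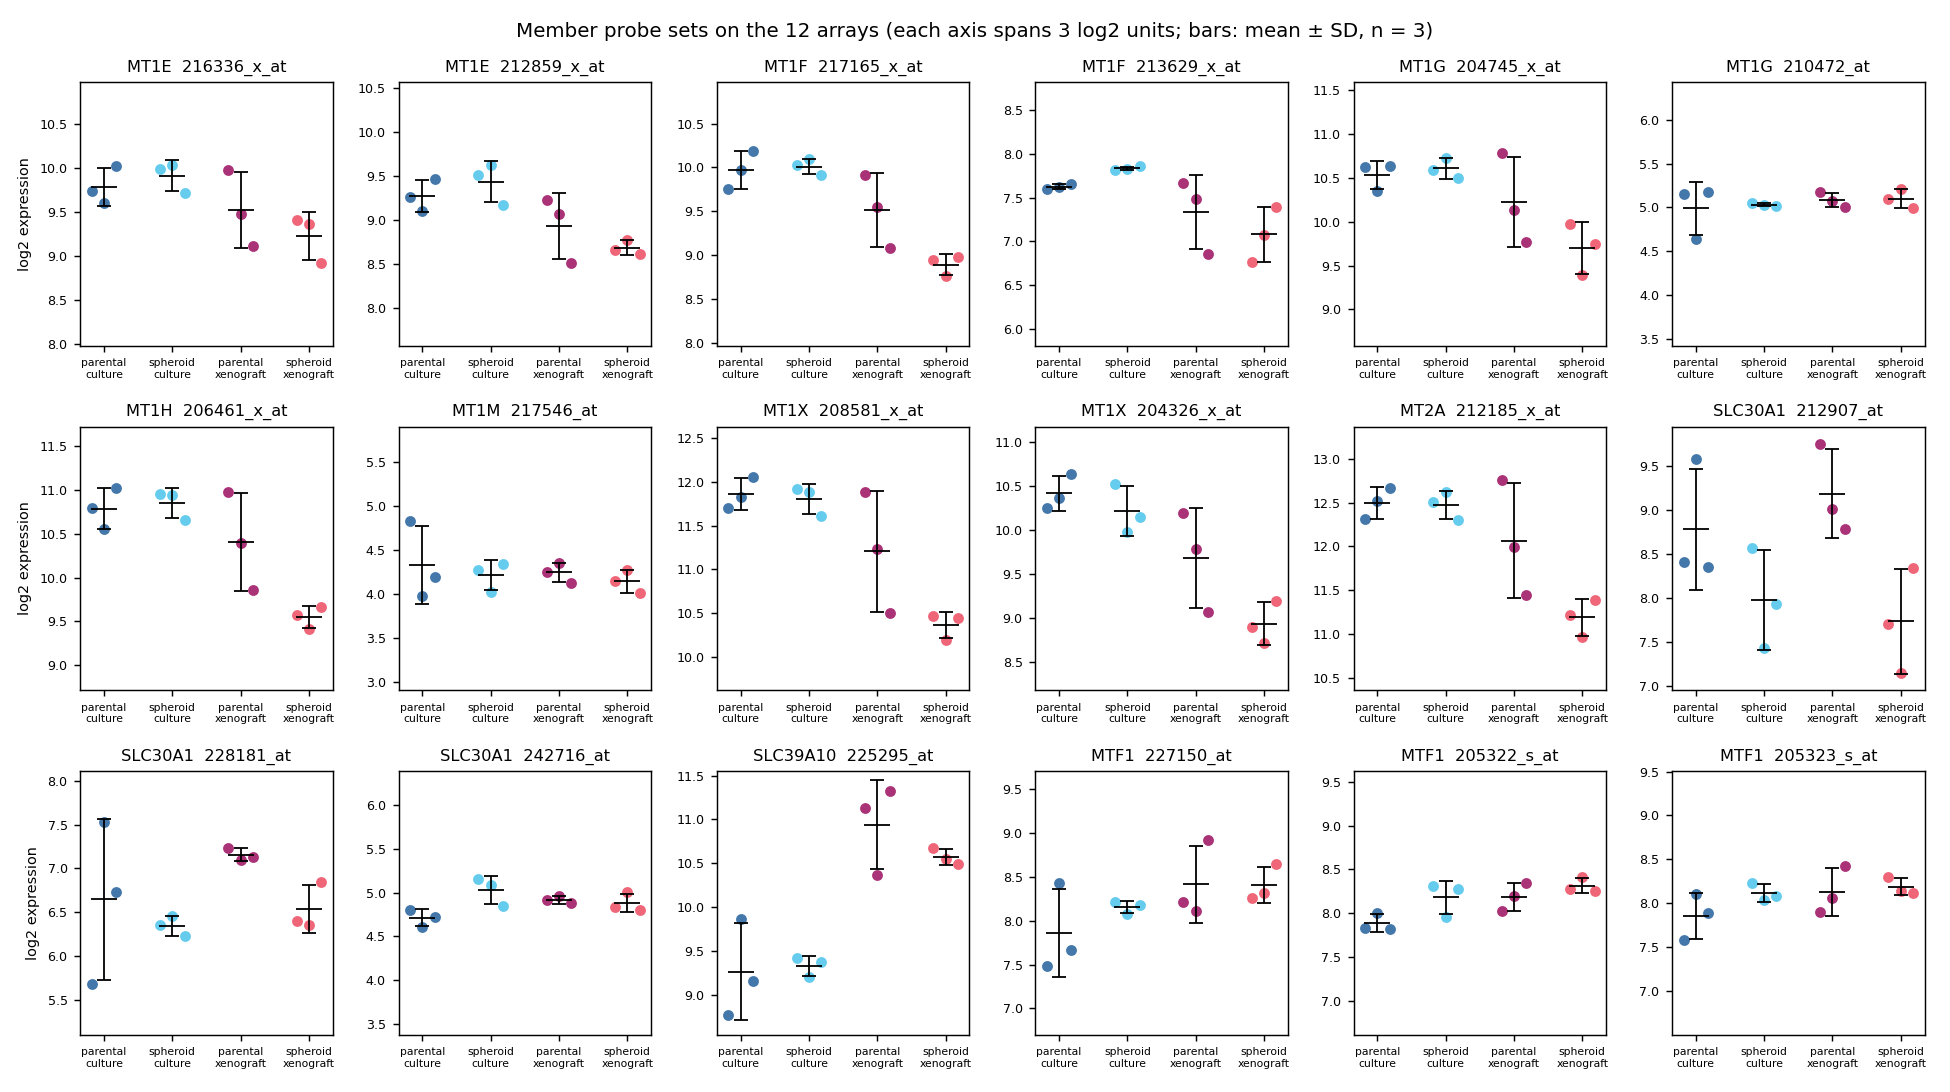
Deposited log2 expression (vertical axis) of the 18 member probe sets in the 4 groups; points are arrays, bars are mean ± SD over 3 arrays, and every axis spans the same number of log2 units. Most metallothionein _x_at probe sets are low in spheroid xenografts, the 3 parental xenografts are spread out, and the 6 xenografts all lie above the 6 cultures for SLC39A10.

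MT2A is the most widely expressed metallothionein in human cells. Its probe set read 12.31, 12.52 and 12.66 in parental culture and 12.50, 12.62 and 12.30 in spheroid culture. Tumours of parental cells read 12.76, 11.99 and 11.45, and those of spheroid cells 11.22, 10.97 and 11.39. All 3 spheroid xenografts lay below the other 9 arrays, and the parental xenografts reached from above every culture to near the spheroid xenografts. From high to low, the group means were 12.50 ± 0.18 in parental culture, 12.47 ± 0.16 in spheroid culture, 12.07 ± 0.66 in tumours of parental cells and 11.19 ± 0.21 in tumours of spheroid cells. The first 3 overlapped one another, and the last did not overlap its neighbour.

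MT1X, MT1H and MT1F are type 1 metallothioneins, induced by the same metals. The leading MT1X probe set (208581_x_at, the one with the highest mean of its gene) read 11.70, 11.83 and 12.05 in parental culture, 11.92, 11.89 and 11.61 in spheroid culture, 11.88, 11.23 and 10.50 in xenografts of parental cells, and 10.46, 10.20 and 10.44 in those of spheroid cells. MT1H read 10.79, 10.55 and 11.02, then 10.95, 10.94 and 10.65, then 10.97, 10.39 and 9.85, and last 9.57, 9.42 and 9.67, in the same order of groups. MT1F (217165_x_at) read 9.75, 9.97 and 10.18, then 10.02, 10.09 and 9.92, then 9.92, 9.55 and 9.08, and last 8.94, 8.76 and 8.98. In these 3 genes, as in MT2A, each spheroid xenograft was below each culture and each parental xenograft, and the gap to parental xenograft replicate 3 was small. For MT1X 204326_x_at the values were 10.25, 10.36 and 10.64, then 10.52, 9.97 and 10.14, then 10.19, 9.78 and 9.06, and last 8.90, 8.71 and 9.19, so that the xenograft groups overlapped.

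The remaining _x_at probe sets, 2 of MT1E, 1 of MT1G and 1 of MT1F (213629_x_at), had smaller group differences. MT1E 216336_x_at ranged from 8.92 to 10.04 over the 12 arrays, MT1E 212859_x_at from 8.51 to 9.63, MT1G 204745_x_at from 9.39 to 10.78 and MT1F 213629_x_at from 6.77 to 7.86. In each of these 4 all spheroid xenografts were below all spheroid cultures, but they overlapped the parental xenografts. The dim probe sets MT1G 210472_at (group means 4.99 to 5.10) and MT1M 217546_at (4.14 to 4.33) showed no such step.

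The mean of the 9 _x_at probe sets on each array shows the pattern as a single value. It read 10.22, 10.21 and 10.48 in parental culture, 10.43, 10.41 and 10.21 in spheroid culture, 10.38, 9.90 and 9.36 in xenografts of parental cells, and 9.32, 9.18 and 9.37 in those of spheroid cells. Parental xenograft replicate 1 was at the level of the cultures and replicate 3 at that of the spheroid xenografts. Replicate 3 had a wider interquartile range (3.29) than replicates 1 and 2 of its group (both 2.99), and the part of array spread was not tested. The SD of the mean of the 9 probe sets was 0.51 among parental xenografts, against 0.097 in spheroid xenografts and 0.15 and 0.12 in parental and spheroid culture. Over the 12 arrays the 36 pairs among the 9 probe sets correlated with r between 0.711 and 0.991 (median 0.901), as probe sets that may share transcripts and also share arrays.

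**Figure D3:**
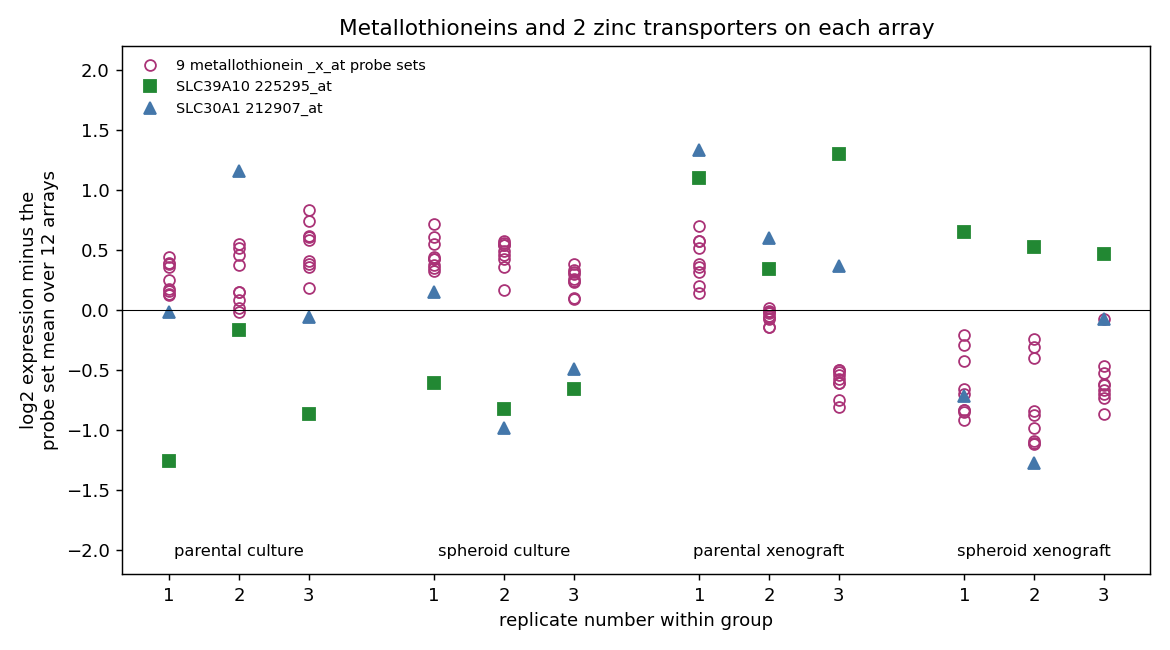
Log2 expression minus the mean of the probe set over the 12 arrays (vertical axis) on each array (horizontal axis, replicate number within group), for the 9 metallothionein _x_at probe sets (circles), SLC39A10 (squares) and SLC30A1 (triangles). The metallothionein probe sets keep together within an array, lie low on the 3 spheroid xenografts and on parental xenograft replicate 3, and SLC39A10 is above 0 on all 6 xenografts and below 0 on all 6 cultures.

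Xenografts and culture of spheroid cells were compared first, because the metallothionein differences were largest there. MT1F (217165_x_at) was lower in xenografts by a log2 difference of -1.12 (SE 0.19, 95% interval -1.54 to -0.69, limma adjusted p = 0.0457). The group means were 2.17-fold apart on the deposited scale, and all 3 xenografts lay below all 3 cultures. MT1F 217165_x_at was the single call among the 11 metallothionein probe sets, 1 lower and 0 higher, where 0.0311% of all probe sets were called lower and 0.222% higher. MT1H (-1.30, SE 0.24, adjusted p = 0.0591), MT1X 208581_x_at (-1.44, SE 0.27, adjusted p = 0.0647), MT1X 204326_x_at (-1.28, adjusted p = 0.0817) and MT2A (-1.28, SE 0.27, 95% interval -1.87 to -0.69, adjusted p = 0.0932) missed the threshold in limma. An unadjusted p under 0.05 was found for 9 of the 11, where 7.87% of all probe sets had one. In 9 of the 11 probe sets, the _x_at ones, the 3 xenografts were all below the 3 cultures, where 9.1% of all probe sets were. The median difference of the 11 was -0.90, against -0.0364 over all probe sets. MT1HL1 differed by -1.31 (adjusted p = 0.0671).

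These calls moved with the fit. In spheroid cells same-numbered arrays of culture and xenograft deviated together, so the fit with the replicate number as a block bears on this comparison. With the block on all 12 arrays, 0 members were called and MT1F had an adjusted p of 0.0979 by limma. With the block on the 6 arrays compared alone, a setting chosen after seeing the data, 9 members were called lower and 1 higher, where 0.667% and 2.53% of all probe sets were. The 9 were the metallothionein _x_at probe sets, with limma adjusted p from 0.00689 (MT1X 208581_x_at) to 0.0413 (MT1F 213629_x_at). With those 6 arrays and no block, 5 members were called lower and 1 higher (0.214% and 0.645% of all probe sets), and with array quality weights, also chosen after seeing the data, 8 lower and 1 higher (0.533% and 1.7%). Among probe sets brighter than the median, MT1F, MT1H and MT1X 208581_x_at were called lower, with 0.0916% of all. Leaving out a single array ended the MT1F call for 8 of the 12 arrays, namely parental culture replicate 3 (adjusted p = 0.0597), spheroid culture replicates 1 (0.109), 2 (0.22) and 3 (0.105), parental xenograft replicate 2 (0.0778) and spheroid xenograft replicates 1 (0.152), 2 (0.176) and 3 (0.19). The MT1F call was also lost with quantile normalisation again (limma adjusted p = 0.0624), median centring (0.0588) and cyclic loess (0.0621). Over all alternatives its difference stayed between -1.22 and -1.05, and it was called in 9 of 22.

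Parental cells gave smaller metallothionein differences between xenografts and culture. Of the 11 probe sets 0 were called, where 1.52% of all probe sets were called higher and 0.818% lower; 3 had an unadjusted p under 0.05 in limma, where 12.9% of all probe sets had one. MT1X 204326_x_at was lower by -0.74 (limma adjusted p = 0.21) and was the only metallothionein probe set whose 3 xenografts all lay below the 3 cultures, where 5.44% of all probe sets did. MT1X 208581_x_at differed by -0.65 (adjusted p = 0.326), MT1F 217165_x_at by -0.45 (adjusted p = 0.34), MT2A by -0.43 (95% interval -1.02 to 0.16, adjusted p = 0.622) and MT1H by -0.38 (adjusted p = 0.627). The median of the 11 was -0.34, and -0.53 without parental culture replicates 1 and 2. These values turned on single xenografts. Without parental xenograft replicate 1 MT2A differed by -0.78 and MT1H by -0.66, and without replicate 3 by -0.12 and -0.10.

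Between the 2 cultures, which differ in serum, medium and attachment, metallothionein levels were close. Of the 18 members 0 were called, where 0.412% of all probe sets were called higher and 0.822% lower, and 2 had an unadjusted p under 0.05 in limma, where 11.6% of all probe sets had one. Spheroid minus parental differences of the 11 metallothionein probe sets ran from -0.20 to 0.21, with a median of 0.043, against 0.0605 over all probe sets. Without parental culture replicates 1 and 2 they ran from -0.43 to 0.18, with a median of -0.14, so the sign of these small differences rests on those arrays. MT2A differed by -0.022 (95% interval -0.61 to 0.57, limma adjusted p = 0.988). The interval leaves room for a change as large as its bounds in either direction, so the cultures are not shown to be equal. MT1F 213629_x_at read 7.60, 7.62 and 7.65 in parental culture and 7.82, 7.83 and 7.86 in spheroid culture. These groups did not overlap, as in 6.85% of all probe sets, and its difference of 0.21 had a limma adjusted p of 0.795.

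Between the 2 kinds of xenograft, 0 of the 18 members were called, where 0.0201% of all probe sets were called higher and 0.0696% lower. An unadjusted p under 0.05 in limma was found for 7 members, where 6.14% of all probe sets had one, and 15 of the 18 differences were negative (spheroid below parental). MT2A differed by -0.87 (95% interval -1.46 to -0.29, adjusted p = 0.423), MT1H by -0.85 (adjusted p = 0.34), MT1X 208581_x_at by -0.84 (adjusted p = 0.474) and MT1F 217165_x_at by -0.62 (adjusted p = 0.434). In these 4 metallothionein probe sets and in SLC30A1 212907_at and 228181_at the 3 spheroid xenografts were all below the 3 parental xenografts, where 6.16% of all probe sets were. Same-numbered xenografts also deviated together. With the replicate block 0 members were called, and with the block on the 6 xenografts alone the limma adjusted p of MT2A was 0.205 and that of MT1H 0.156. Array quality weights, a setting chosen after seeing the data, called 6 members lower, where 1.51% of all probe sets were: MT2A, MT1H, both MT1X probe sets, MT1F 217165_x_at and SLC30A1 212907_at.

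Whether the spheroid to parental difference itself differed between xenografts and culture was tested as an interaction. It was called for 0 of the 18 members, where 0.033% of all probe sets were called higher and 0.0403% lower, and 3 members had an unadjusted p under 0.05 in limma, where 6% of all probe sets had one. The lowest limma adjusted p was that of MT1H (-0.92, SE 0.34, adjusted p = 0.636), and MT2A differed by -0.85 (adjusted p = 0.815). Of the 18 values 17 were negative. The larger xenograft to culture difference in spheroid cells than in parental cells was therefore not shown to be a difference between the 2 kinds of cell.

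**Figure D4:**
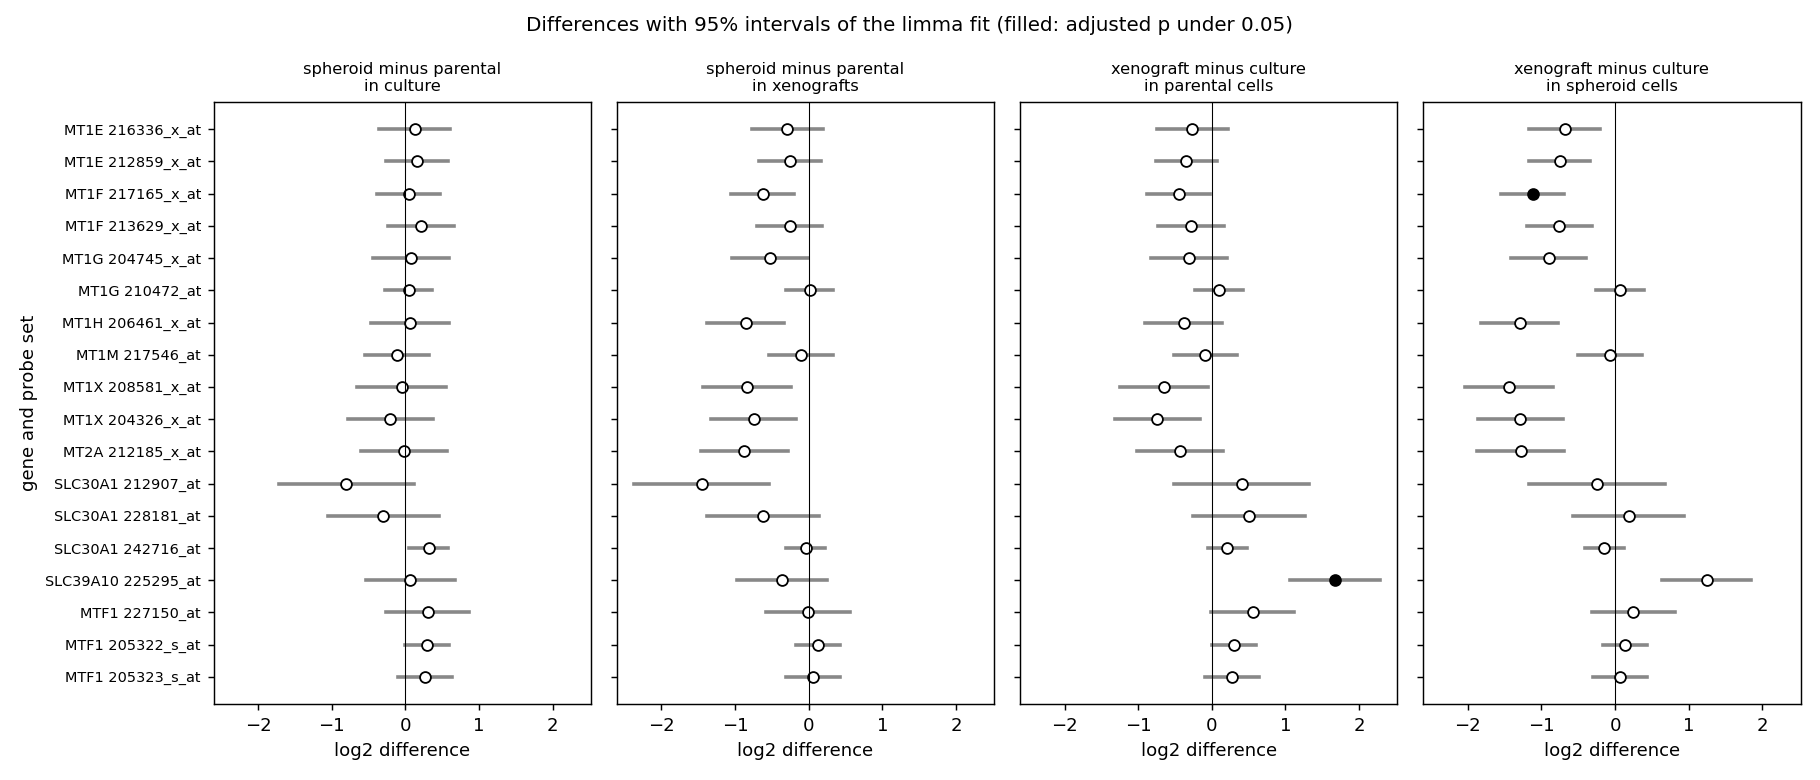
Log2 differences (horizontal axis) of the 18 member probe sets in 4 comparisons, with 95% intervals of the limma fit; filled points have an adjusted p under 0.05. Only MT1F 217165_x_at in spheroid cells (-1.12) and SLC39A10 in parental cells (1.68) are filled, and the metallothionein _x_at points lie left of 0 in both xenograft minus culture panels.

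SLC30A1 is the exporter that lowers cytoplasmic zinc and is itself a target of MTF1. Its leading probe set (212907_at) read 8.41, 9.58 and 8.36 in parental culture and 8.57, 7.44 and 7.93 in spheroid culture. Tumours of parental cells read 9.76, 9.02 and 8.79, and those of spheroid cells 7.71, 7.15 and 8.35. The means were 9.19 ± 0.51 in parental xenografts, 8.78 ± 0.69 in parental culture, 7.98 ± 0.57 in spheroid culture and 7.73 ± 0.60 in spheroid xenografts, and each neighbouring pair in that order overlapped. In xenografts the spheroid minus parental difference was -1.45 (SE 0.42, 95% interval -2.37 to -0.54, 2.74-fold lower, limma adjusted p = 0.365), in culture -0.80 (95% interval -1.72 to 0.12, adjusted p = 0.529). Neither was called, and the difference between them was -0.65 (SE 0.59, adjusted p = 1.00 in limma). Without parental culture replicates 1 and 2, which leaves that group a single array, the difference in culture was -0.38 and the interaction -1.07.

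The group means of SLC30A1 came in another order than those of the metallothioneins, a difference that was not tested. In spheroid cells it differed between xenograft and culture by -0.25 (95% interval -1.16 to 0.67, limma adjusted p = 0.944), and in parental cells by 0.41 (adjusted p = 0.858). Without parental culture replicates 1 and 2, which leaves that group a single array, SLC30A1 differed in parental cells by 0.83. The probe set 228181_at read 5.69, 7.52 and 6.73 in parental culture, 6.36, 6.46 and 6.23 in spheroid culture, 7.24, 7.09 and 7.13 in tumours of parental cells and 6.40, 6.35 and 6.85 in tumours of spheroid cells. It was widest in parental culture, whose replicates 1 and 2 are the lowest and the highest of the 12 values and the narrowest and the widest of the 12 arrays. The third, 242716_at, stayed between 4.61 and 5.15; its 3 spheroid cultures were above its 3 parental cultures by 0.32 (adjusted p = 0.306 by limma, the lowest of any member between cultures).

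SLC39A10 imports zinc across the plasma membrane. It read 8.77, 9.86 and 9.16 in parental culture, 9.42, 9.20 and 9.37 in spheroid culture, 11.13, 10.37 and 11.33 in tumours of parental cells and 10.68, 10.55 and 10.50 in tumours of spheroid cells. All 6 xenografts were above all 6 cultures, as in 1.66% of all probe sets. The means were 10.94 ± 0.50 in parental xenografts, 10.57 ± 0.092 in spheroid xenografts, 9.33 ± 0.11 in spheroid culture and 9.26 ± 0.55 in parental culture; within xenografts and within culture the groups overlapped. Xenografts of parental cells were higher than culture by 1.68 (SE 0.28, 95% interval 1.07 to 2.29, limma adjusted p = 0.0117). The group means were 3.20-fold apart on the deposited scale, and all 3 tumours lay above all 3 cultures. SLC39A10 was the single call among the 4 zinc transporter probe sets in that comparison, where 1.52% of all probe sets were called higher and 0.818% lower. SLC39A10, the dim SLC30A1 242716_at and MTF1 205322_s_at were the 3 members whose xenografts all lay above the cultures, where 7.68% of all probe sets did. The SLC39A10 call was lost without parental culture replicate 3 (1.62, limma adjusted p = 0.0504) and with only the 2 groups in the fit (adjusted p = 0.158). It held in 19 of 21 alternatives, with differences from 1.43 to 1.98. Without parental culture replicates 1 and 2 together, which leaves that group a single array, the difference was 1.78.

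In spheroid cells SLC39A10 differed by 1.24 (SE 0.28, 95% interval 0.63 to 1.85, limma adjusted p = 0.116), which was not called; in 9.31% of all probe sets the 3 xenografts likewise lay above the 3 cultures. With the replicate block on the 6 arrays compared it was called (adjusted p = 0.00616), and with the block on all 12 arrays it was not (adjusted p = 0.193). It was called in 6 of 22 alternatives. These also include quantile normalisation (limma adjusted p = 0.0468), only the 2 groups (0.0113), array quality weights (0.0073) and parental culture without replicate 2 (0.0353). The last of the 6 left parental culture a single array. The rise in parental cells was not shown to exceed that in spheroid cells, since the interaction was -0.43 (SE 0.39, limma adjusted p = 1.00). Spheroid minus parental differences were 0.068 in culture (95% interval -0.54 to 0.68) and -0.37 in xenografts (95% interval -0.97 to 0.24).

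Tumours can hold cells of the host, so markers of other cell types were read beside these results. Of 8 fibroblast markers COL3A1 was higher in parental xenografts than in parental culture (2.06, limma adjusted p = 0.0195) and 0 others were called; in spheroid cells it differed by 1.27 (adjusted p = 0.288). An unadjusted p under 0.05 was found in 5 of the 40 tests of the fibroblast list, 3 of them between parental xenografts and culture. The mean level of the fibroblast list was 5.82 to 6.24 in parental culture, 6.05 to 6.27 in spheroid culture, and in tumours 6.07 to 6.73 (parental) and 6.28 to 6.36 (spheroid). LUM, a defining fibroblast marker, was below the lower quartile on all 12 arrays, as were the endothelial markers KDR and TIE1 and the adipocyte marker ADIPOQ. Other markers of these lists were not as dim. COL1A1, COL1A2, COL3A1, DCN, PDGFRA, PDGFRB and THY1 were below it on 0 arrays, as were PECAM1, VWF, TEK, CLDN5 and PLIN1. CDH5 was below it on 9 arrays, FABP4 on 4 and LEP on 3. Of 7 endothelial, 6 myeloid and 4 adipocyte markers measured, 0 were called by limma in any comparison; 2 of their 85 tests over the 5 comparisons, both of adipocyte markers, had an unadjusted p under 0.05. FN1 and CDH2, given above, also passed in the comparison where SLC39A10 did. The array is made for human transcripts and the labels leave the host animal unstated. Dim or uncalled markers thus do not measure how much host tissue a tumour held. The part of host cells in the differences of SLC39A10 and the metallothioneins was not tested. In such bulk RNA, fewer cells of a type and less RNA per cell cannot be told apart.

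MTF1 is the zinc sensor that switches on metallothionein genes. Its leading probe set (227150_at) read 7.48, 8.42 and 7.66 in parental culture, 8.21, 8.07 and 8.18 in spheroid culture, 8.21, 8.11 and 8.92 in tumours of parental cells and 8.26, 8.32 and 8.64 in tumours of spheroid cells. From low to high, the group means were 7.86 ± 0.50 in parental culture, 8.16 ± 0.073 in spheroid culture, 8.41 ± 0.21 in spheroid xenografts and 8.41 ± 0.44 in parental xenografts. Neighbours in that order overlapped, except that the 3 spheroid xenografts all lay above the 3 spheroid cultures, as in 9.31% of all probe sets, by a difference of 0.25 (limma adjusted p = 0.905) that was not called. The highest arrays were parental xenograft replicate 3, spheroid xenograft replicate 3 and parental culture replicate 2, which are also the 3 arrays of the largest interquartile range (3.29, 3.23 and 3.44); the part of array spread was not tested. Of its 3 probe sets 0 were called by limma in any of the 5 comparisons. An unadjusted p under 0.05 was found for 1 between cultures and 1 between parental xenografts and culture, where 11.6% and 12.9% of all probe sets had one. Parental xenografts differed from culture by 0.56 (95% interval -0.010 to 1.12, limma adjusted p = 0.402), and the 2 other probe sets by 0.30 and 0.27.

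The wider zinc and copper machinery was read from lists, on the leading probe set of each gene. Of 9 other zinc exporters (SLC30A family), 13 other zinc importers (SLC39A family), 14 copper-handling genes, 12 measured genes of metal and oxidant stress and 3 other measured metallothioneins, 0 were called by limma in any of the 5 comparisons. Of all probe sets, 0.0201% to 1.52% were called in a given direction of a comparison. SLC30A10, SLC39A12, COX17 and STEAP4 were below the array's lower quartile on all 12 arrays. By unadjusted p under 0.05 in limma, 46 of the 255 tests of these lists passed, among them 17 of 70 for copper handling, 11 of 65 for the importers, 11 of 60 for the stress genes, 3 of 45 for the exporters and 4 of 15 for the other metallothioneins. Over the leading probe sets of all genes 10.5% of tests did. The median difference between xenografts and culture of spheroid cells was -0.071 for the exporters, 0.017 for the importers, 0.16 for copper handling and -0.059 for the stress genes. Between cultures the stress genes had a median of 0.51 (spheroid above parental), the exporters 0.15, the importers 0.047 and copper handling -0.058.

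Because glucocorticoids also induce metallothioneins, 11 glucocorticoid-responsive genes were read. In culture 2 were higher in spheroid cells, where 0.412% of all probe sets were, the kinase SGK1 (1.50, limma adjusted p = 0.0313) and the growth factor receptor inhibitor ERRFI1 (0.78, adjusted p = 0.0349). Parental xenografts exceeded parental culture in 3, SGK1 (1.80, adjusted p = 0.0102), the NF-kappaB inhibitor NFKBIA (0.94, adjusted p = 0.0209) and ERRFI1 (0.73, adjusted p = 0.0327), and were lower in glutamine synthetase GLUL (-1.56, adjusted p = 0.0415); 1.52% of all probe sets were higher and 0.818% lower there. Uncalled genes of the list went both ways. Between cultures they ran from -0.69 (FKBP5) to 0.70 (NFKBIA), with a list median of 0.30. Between parental xenografts and culture they ran from -0.28 (KLF9) to 0.38 (ZBTB16), with a list median of 0.27. In the other 3 comparisons 0 were called. An unadjusted p under 0.05 in limma was found in 16 of the list's 55 tests, where 10.5% of tests over all genes had one. Of the 11 genes, 4 passed in the interaction and 3 between xenografts. Between xenografts and culture of spheroid cells 1 passed, NFKBIA (0.91, limma adjusted p = 0.0692), and the list's median was -0.22. The part of glucocorticoids in the metallothionein differences was not tested.

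Genes with the most similar profile were found by Pearson correlation over the 12 arrays, among genes with an SD of at least 0.3. These values are descriptions, since the arrays share groups, and groups that differ raise many correlations. The mean of the leading probe sets of the 7 metallothionein genes was closest to EPB41L4A (r = 0.878), FOXP1 (0.871), ZNF629 (0.832), ST3GAL5 (0.811), SQOR (0.810), BANK1 (0.798), UBE2T (0.797) and CTSLP8 (0.793). FOXP1 had group means of 7.63 and 7.43 in parental and spheroid culture, and 7.32 and 6.57 in the corresponding xenografts. SLC30A1 was closest to TOR1AIP2 (0.962), EDEM3 (0.949), VEGFA (0.948) and SHOX2 (0.929). SLC39A10 was closest to DNPEP (0.961), ANKFY1 (0.955), ITGAV (0.938) and TNIP1 (0.935), and MTF1 to RBM5 (0.964), RNF103 (0.959), MAP3K5 (0.952) and UBE3B (0.945). The integrin subunit ITGAV had means of 10.03 and 10.64 in parental and spheroid culture and of 11.80 and 11.42 in parental and spheroid xenografts.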

How the data were processed

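Per the submitters' processing notes, the authors used RMA and affy, with no versions named, and the deposited numbers are log2 expression values, as their range also shows. Whether RMA was run on the 12 arrays jointly is not stated. Per the labels' protocols, 2 µg of total RNA was labelled by a one-cycle kit. Symbols came from the platform annotation (41091 probe sets with 1 symbol, 1801 with several, 11721 non-control with none). The 62 control probe sets were left out.

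With limma 3.58.1 in R 4.3.3, lmFit and eBayes were run on the 54613 others, all groups sharing a spread estimate per probe set (8 residual degrees of freedom), for 5 two-sided comparisons. The number of arrays limits precision: the SE had a median of 0.185 between groups and 0.261 in the interaction. The fit was tested on simulated data with independent noise. Those data held no replicate pairing and no array-wide spread, so that test does not bear on either. No arrays were duplicates of each other.

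Every member probe set is described. From the zinc, copper, stress and glucocorticoid lists the rule names at most 4 called genes per comparison, and every called cell type marker is named. The uncalled extremes of the glucocorticoid list are given beyond that rule. The rule takes the 8 genes most similar to the metallothioneins and 4 to each other gene. The members and lists were chosen with earlier results of these data known. Replicate numbers were checked as pairs by the correlation of same-numbered arrays' deviations from their group means: 0.181, 0.218 and 0.464 between xenografts and 0.287, 0.303 and 0.4 in spheroid cells, all over 0.1, but of mixed sign between cultures and in parental cells. The pairing comes from the data; the labels do not say what a number shares. Alternatives were 3 renormalisations, a brightness filter, a leading probe set per gene, only the groups compared, the replicate block and each array left out. Array quality weights, parental culture replicates 1 and 2 left out together, and the block with only the groups compared were chosen after seeing the data.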

Additional observations from a re-analysis of the deposited data

How the results depend on the processing

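No called member difference changed sign under the alternatives run. Of the member values recomputed, 15 lost a call, 42 gained one and 1796 stayed on their side of the threshold. The counts below are of probe sets called by limma, in the order culture (spheroid minus parental, 674 as deposited), xenografts (the same, 49), parental cells (xenograft minus culture, 1276), spheroid cells (the same, 138) and the interaction (40). Quantile normalisation again gave 1676, 45, 2048, 220 and 191, median centring 464, 32, 767, 77 and 14, and cyclic loess about 1.3e+03, 39, 1625, 165 and 91. The share of higher calls moved by over 10 percentage points in 7 of these 15: in culture, 225 higher and 449 lower became 104 and 360 with median centring; in parental cells 829 and 447 became 1073 and 975 (quantile) and 830 and 795 (loess); in spheroid cells 121 and 17 became 169 and 51 (quantile) and 125 and 40 (loess); in the interaction 18 and 22 became 9 and 5 (centring) and 53 and 38 (loess). A leading probe set per gene gave 687 in parental and 4 in spheroid cells, with fewer probe sets tested. Only the 2 groups compared gave 14, 132, 59 and 469. The replicate block gave 563, 34, 1078, 81 and 21; with only the groups compared it gave 579 between xenografts and 1746 in spheroid cells. It called 0 members between cultures and 1 in parental cells, where the numbers do not pair. Without parental culture replicates 1 and 2 together the counts were 319, 97, 819, 279 and 89, and with array quality weights (0.222 for parental culture replicate 2 to 2.81 for spheroid xenograft replicate 2) 1804, 1417, 3084, 1221 and 553. Leaving out each array gave 96 to 1238, 5 to 144, 495 to 3216, 10 to 335 and 3 to 241.

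Members called in spheroid cells, 1 as deposited, were 0 with median centring, cyclic loess, a leading probe set per gene or the replicate block. They were 3 among brighter probe sets (of 125 called in all), 6 with only the 2 groups (of 469), 10 with the block on the 2 groups (of 1746) and 9 with array quality weights (of 1221). Quantile normalisation again left 1, which was SLC39A10, called higher, while MT1F was lost (limma adjusted p = 0.0624). With an array left out, 0 to 5 members were called in spheroid cells. Without parental culture replicate 2 they were 3 lower and 1 higher, of 335 probe sets called in all. Without parental xenograft replicate 1 they were 4 lower (of 129), and without parental xenograft replicate 3 they were 5 lower (of 181). In parental cells they were 0 with only the 2 groups and 0 to 1 with an array left out. Between xenografts array weights called 6 in place of 0. The causes were not tested. With 3 arrays a group, a member difference near the median SE is beyond what these data can resolve. Differences of several SE also went uncalled, such as that of MT2A in spheroid cells (-1.28, SE 0.27, limma adjusted p = 0.0932). An uncalled difference is therefore not shown to be absent.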
